A study of Mus musculus with 4 samples.

Results

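Mid-villus absorptive enterocytes were examined in single-cell RNA-seq data of the distal jejunum. They were chosen by measured genes: barcodes with at most 10% of their unique molecular identifiers (UMIs, the tags that mark single captured RNA molecules) on mitochondrial genes, at least 1 UMI of the epithelial adhesion gene Epcam, 2 or more UMIs in at least 3 of the 6 genes Cubn, Slc5a12, Pck1, Lct, Dnase1 and Slc13a2, 2 or more UMIs in fewer than 3 of the 6 villus-top genes Nt5e, Ada, Slc28a2, Ly6m, Clca4a and Slc23a4, and no UMI of Sprr2a3. This rule took 679 cells, which were 2.99% of the 22679 barcodes, 11.6% of the 5876 barcodes within the mitochondrial limit and 19.4% of the 3498 of these with Epcam. Control mouse 1 gave 328 cells, control mouse 2 gave 29, EC-Foxc-DKO mouse 1 gave 243 and EC-Foxc-DKO mouse 2 gave 79. A value for each mouse is given in this order throughout.

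All 4 mice, 2 in each group, underwent ischemia-reperfusion (I/R), in which the superior mesenteric artery was clamped for 30 minutes and then released, and their distal jejuna were taken 18.5 h later. Both groups carried the floxed alleles Foxc1fl/fl;Foxc2fl/fl, both received tamoxifen by gavage for 5 days at 7 to 8 weeks of age, and both were operated on 12 days after tamoxifen. EC-Foxc-DKO mice also carried Cdh5-CreERT2, which recombines these alleles in endothelial cells, whereas controls lacked Cre. The enterocytes were therefore not the cells in which the deletion was driven. Each mouse was 1 library, so that the mouse and its library cannot be told apart.

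Absorptive enterocytes line the villus as a single layer. They are born in the crypts, move up the villus over a few days and are shed at its tip, and on the way they change from a program with antimicrobial genes near the base, through nutrient uptake along the middle, to a program with purine handling and adhesion genes near the tip. Of the genes of the rule, Lct encodes lactase, which splits milk sugar at the brush border, and Cubn encodes cubilin, the receptor that takes up vitamin B12 bound to intrinsic factor. Pck1 encodes phosphoenolpyruvate carboxykinase, the enzyme that commits oxaloacetate to gluconeogenesis. Slc5a12 carries lactate and Slc13a2 carries dicarboxylates such as citrate, both coupled to sodium, and Dnase1 encodes a secreted DNA-cutting enzyme.

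On the mouse assembly GRCm38, Lct is a gene of 17 exons on the minus strand of chromosome 1 (128284756 to 128328318), and Pck1 has 10 exons on the plus strand of chromosome 2 (173153048 to 173159273). Cubn (67 exons, minus strand, 13276338 to 13491813) and Slc5a12 (15 exons, plus strand, 110597298 to 110647779) also lie on chromosome 2, Slc13a2 (12 exons, minus strand, 78397087 to 78422217) on chromosome 11 and Dnase1 (10 exons, plus strand, 4036942 to 4040024) on chromosome 16. RefSeq promoters on GRCm38.p6 were at hand for 5 of these 6 genes and were searched on both strands for short letters bound by regulators of enterocyte genes. The GATA letters AGATAA were found for Lct and Pck1, and they occur in 11.2% of all 32851 promoters of the same length. The 250 bases upstream of the start of both genes are shown 5′ to 3′ on the gene's strand because these 2 are the genes of the rule with a match, and capitals mark AGATAA or its reverse complement. The Lct stretch is chr1:128328319-128328568 (minus strand), and the Pck1 stretch is chr2:173152823-173153072 (plus strand).
Lct: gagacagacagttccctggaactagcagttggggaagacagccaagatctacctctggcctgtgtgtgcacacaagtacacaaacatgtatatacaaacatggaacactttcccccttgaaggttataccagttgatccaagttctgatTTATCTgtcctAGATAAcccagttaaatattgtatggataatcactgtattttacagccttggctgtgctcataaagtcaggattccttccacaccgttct
Pck1: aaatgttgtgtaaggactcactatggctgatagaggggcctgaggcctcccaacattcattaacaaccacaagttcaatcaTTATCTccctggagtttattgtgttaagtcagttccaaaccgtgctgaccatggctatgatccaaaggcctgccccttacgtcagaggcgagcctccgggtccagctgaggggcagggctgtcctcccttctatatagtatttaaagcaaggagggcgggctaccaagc
In Lct a match began 90 bases upstream of the start and another, on the opposite strand, 101 bases upstream, and in Pck1 a match on the opposite strand began 169 bases upstream. The letters searched for HNF1, HNF4 (CAAAGTCCA), CDX (TTTATGG) and PPAR were not in these windows of the 5 genes, and they occur in 0.00913%, 0.475%, 2.75% and 0.0396% of all promoters. A match describes these letters and is not a shown binding site.

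The libraries differed before any comparison of genotype. The members held 11140268, 958977, 7794976 and 1817386 UMIs per mouse, with medians of 32537, 32340, 29530 and 21327 UMIs and 4632.5, 4624, 4422 and 3709 genes per cell. Control mouse 2 thus rested on 29 cells and had the fewest UMIs. The mitochondrial limit left out 545, 129, 528 and 28 barcodes that otherwise met the rule, more than it kept in the first 3 mice and fewer in EC-Foxc-DKO mouse 2. The Sprr2a3 condition left out 78, 2, 38 and 126 further cells, most of them in EC-Foxc-DKO mouse 2, and 98, 1, 52 and 3 cells were left out because they met the villus-top rule too. Barcodes that occur in more than 1 library numbered 51, of which 3 were members.

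EC-Foxc-DKO mouse 2 stood apart from the other mice. Of 2413 genes at a mean of at least 50 counts per 1000000 UMIs of the members of a mouse (CPM), 115 lay more than 2-fold outside the range of the other 3 mice in EC-Foxc-DKO mouse 2, 26 above and 89 below, against 4, 9 and 2 genes for the other mice in order. Fabp6, the ileal bile acid binding protein, was at 0.269, 1.04, 3.72 and 505 CPM, and a single barcode of the latter mouse held 65.4% of its UMIs there. Lcn2, the iron-sequestering lipocalin of inflamed epithelium, was at 0.539, 52.1, 3.72 and 481 CPM and was found in 45 of the 79 cells, against 0 of the 125 lymphocytes of that library, which allows a share of cells with a UMI of up to 2.4% at their depth and does not bound the share that carry the gene. Lymphocytes here were cells within the same mitochondrial limit with no UMI of Epcam and 2 or more of Cd3e, Cd3g, Cd79a and Cd79b together, and they were shallower (median 3471 against 21327 UMIs). Gpx2, a glutathione peroxidase of the gut, was at 200, 161, 167 and 1267 CPM, and the glutathione transferase gene Gstm3 at 233, 253, 200 and 1315 CPM. On the low side, the retinol dehydrogenase gene Rdh7 was at 297, 324, 236 and 58.9 CPM, the alcohol dehydrogenase gene Adh1 at 282, 389, 283 and 70.4 CPM and the proline transporter gene Slc6a20a at 124, 129, 123 and 24.8 CPM. These 7 genes were picked after their values were seen. A difference between the genotypes in the members therefore has to be read with the value of this mouse beside that of EC-Foxc-DKO mouse 1.

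The label was checked against markers of enterocytes and of other cells. The 10 genes of enterocytes in general summed to 71059, 63940, 77250 and 92850 CPM, led by the fatty acid binding protein gene Fabp2 at 39029, 31441, 43914 and 55377 CPM, and the brush border genes Vil1 and Anpep were found in 100% of the members of every mouse. Detection alone says little, since Fabp2 was also in 98.2%, 50.8%, 89.6% and 66.4% of the shallower lymphocytes. Its level there was lower, at 985, 1199.5, 611 and 385 CPM. The 6 genes of the rule were unevenly present: 2 or more UMIs of Lct were held by 99.1% of the members, of Slc13a2 by 94.3%, of Dnase1 by 89.8%, of Pck1 by 80.1%, of Slc5a12 by 61.9% and of Cubn by 52.9%. Lct was thus near universal, while Cubn and Slc5a12 divided the members.

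Markers of other cell types were low in sum, and the higher sums came partly from single barcodes and partly from UMIs spread over many cells. Goblet cell genes summed to 70.5, 31.3, 95.1 and 29.2 CPM, Paneth cell genes to 3.14, 5.21, 6.54 and 36.9 CPM, and genes of dividing crypt cells to 1.35, 4.17, 2.57 and 3.30 CPM. Endothelial genes, from the cells in which Cre was driven, summed to 0.449, 1.04, 2.31 and 0 CPM, stromal genes to 0.359, 0, 1.54 and 1.10 CPM and erythroid genes to 5.21, 1.04, 8.72 and 3.30 CPM. Plasma cell genes were at 1492, 10.4, 96.6 and 27.0 CPM. A single barcode of control mouse 1 held 99.0% of its 5256 UMIs of Igha, the immunoglobulin A heavy chain. Enteroendocrine genes were at 46.0, 41.7, 151 and 80.3 CPM, tuft cell genes at 25.6, 2.09, 16.8 and 3.30, lymphocyte genes at 22.2, 3.13, 102 and 8.25, and myeloid genes at 1.71, 1.04, 21.9 and 9.35. EC-Foxc-DKO mouse 1 was highest for the lymphocyte, myeloid and enteroendocrine sums. Its plasma cell sum was mostly Igkc, the kappa light chain, at 81.2 CPM and in 72.8% of its members, and the secretin gene Sct, at 87.5 CPM, was in 60.1% of them. Outside these lists, 1 barcode of the same mouse held 99.1% of the 2262 UMIs of Gip, a hormone of K cells. Igkc was also in 92.2% of the 1173 lymphocytes of that library, which can express it, and Sct was in 27 of them at a median of 3365 UMIs a cell. The markers of absorptive enterocytes were present and those of other lineages were a small part of the RNA, so the label was kept. This check does not bear on the villus zone, which rests on the genes of the rule. Of genes the paper lists for bottom enterocytes, Fabp1 and Sis were higher in the members of each mouse than in the villus-bottom cells described next. Gstm3 was lower in the members of control mouse 1 and higher in those of the other mice.

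The genes of the rule had these levels in the members, and since they chose the cells these are a description only. Cubn was at 145, 85.5, 184 and 80.9 CPM, against 2.69, 5.24, 0.791 and 0.813 CPM in villus-bottom enterocytes and 52.1, 48.8, 40.0 and 59.9 CPM in villus-top enterocytes. Villus-bottom enterocytes were the 291 cells that met the same limits with 3 or more of 6 villus-bottom genes, among them Reg3b, Reg3g, Plac8, Gstm3 and Mgst1, and without the genes of the other zones, and villus-top enterocytes the 466 cells with 3 or more of the 6 villus-top genes. Lct was at 819, 729, 865 and 572 CPM in the members, against 211, 69.4, 136 and 92.9 at the bottom and 403, 366, 342 and 317 at the top. Pck1 was at 349, 461, 308 and 107 CPM, against 28.2, 56.3, 9.49 and 2.98 at the bottom and 161, 48.8, 98.4 and 163 at the top. EC-Foxc-DKO mouse 2 was the lowest of the mice for Pck1 in the members but not at the top, where its sum came from 8 cells. Dnase1 was at 390, 316, 320 and 124 CPM, Slc13a2 at 211, 177, 282 and 275 CPM, and Slc5a12 at 93.2, 112, 139 and 75.9 CPM. The genotypes overlapped for Cubn, Slc5a12, Lct and Dnase1, whereas both EC-Foxc-DKO mice were above both controls for Slc13a2 and below both for Pck1.

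**Figure D1:**
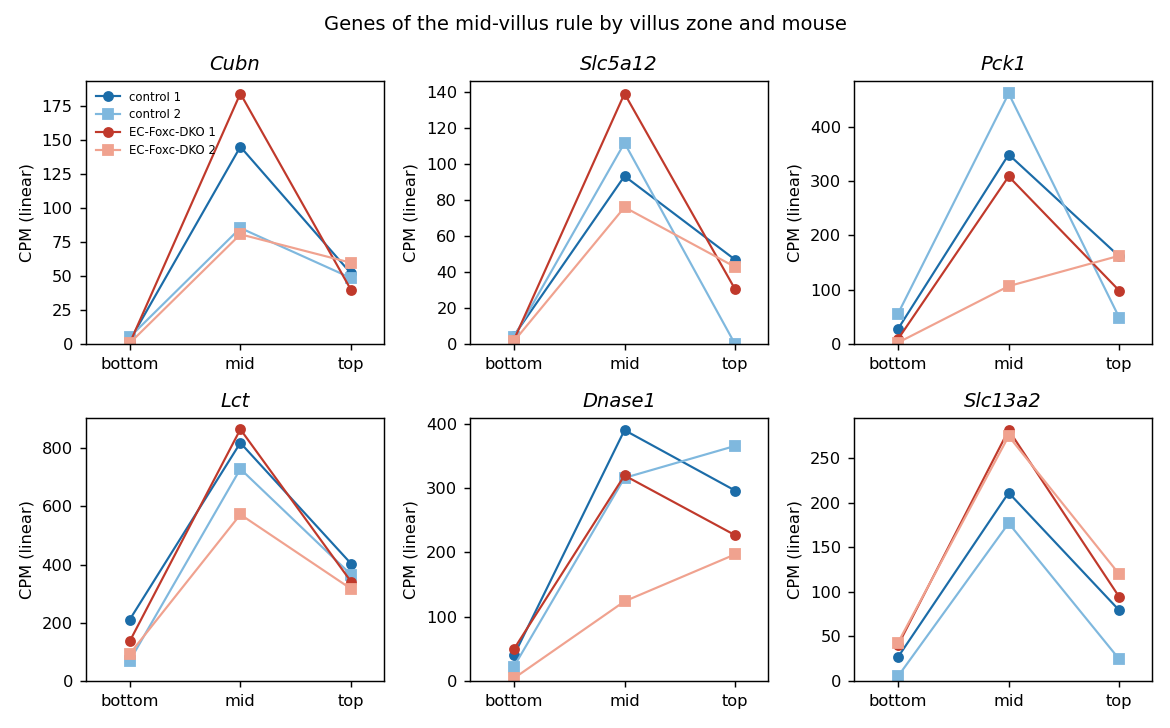
Levels of the 6 genes of the rule (CPM, linear axis) in villus-bottom, mid-villus and villus-top enterocytes, with 1 point for each mouse. The mid-villus points are the highest of the 3 zones for Lct in all 4 mice (572 to 865 CPM), a gene that chose the cells, and the villus-top points of control mouse 2 and EC-Foxc-DKO mouse 2 rest on 3 and 8 cells.

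The members were not uniform, and they spread between cells just inside the rule, with 3 of its 6 genes, and cells with all 6. Cells with 3, 4, 5 and 6 genes numbered 51, 85, 73 and 119 in control mouse 1, 8, 8, 4 and 9 in control mouse 2, 28, 44, 51 and 120 in EC-Foxc-DKO mouse 1, and 34, 23, 17 and 5 in EC-Foxc-DKO mouse 2. Cells with all 6 were thus 36.3% and 31.0% of the members in the controls, 49.4% in EC-Foxc-DKO mouse 1 and 6.33% in EC-Foxc-DKO mouse 2. The 2 EC-Foxc-DKO mice lay on opposite sides of both controls. The median depth was 36586 UMIs at 3 genes and 31178 at 6 in control mouse 1, 33608 and 28123 in control mouse 2, 33800 and 28224 in EC-Foxc-DKO mouse 1, and 21346 and 21539 in EC-Foxc-DKO mouse 2, the shallowest. Among the members, cells with 6 genes were thus not deeper than those with 3 in the first 3 mice and about as deep in the last. Cells with 0, 1 or 2 of the genes, left out by the rule, had medians of 4910.5, 18151 and 29884 UMIs over the 4 mice. By mouse, those with 2 of the genes had medians of 33946, 9460, 32596 and 22940 UMIs, above the members in 3 mice and below them in control mouse 2. Just outside the rule, 25, 5, 24 and 34 cells carried 2 of the genes and were otherwise within it. Their Lct was at 307, 377, 343 and 344 CPM, against 446, 487, 381 and 443 CPM just inside, at 3 genes.

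Along this series from 3 to 6 genes, many genes that the rule did not use went up or down in every mouse. Apoa4, an apolipoprotein of chylomicrons, went from 3904 to 10451, from 2443 to 8684, from 4552 to 13494 and from 7384 to 10700 CPM. Fabp2 went from 20535 to 55339, from 22962 to 42404, from 17924 to 59900 and from 45467 to 73402 CPM. The peptidase gene Ace went from 300 to 964, from 221 to 1037, from 275 to 1008 and from 289 to 479 CPM. These 3 absorptive genes were higher at 6 genes in each mouse, with the smallest ratio of 6 to 3 genes in EC-Foxc-DKO mouse 2 for each of them. In the other direction, the antimicrobial lectin gene Reg3b went from 21254 to 13238, from 30606 to 24552, from 29553 to 17176 and from 61556 to 49147 CPM. The metallothionein gene Mt1 went from 1227 to 170, from 1105 to 412, from 375 to 199 and from 393 to 319 CPM. Genes of cytosolic ribosomal proteins summed to 98758 CPM at 3 genes and 37225 at 6 in control mouse 1, 85490 and 40384 in control mouse 2, 119733 and 38938 in EC-Foxc-DKO mouse 1, and 43052 and 21719 in EC-Foxc-DKO mouse 2. Cells with more of the mid-villus genes carried more lipid and peptidase RNA and less Reg3b, metallothionein and ribosomal protein RNA, and sucrase-isomaltase (Sis) was lower at 6 genes than at 3 in all 4 mice, with ratios of 0.811, 0.781, 0.7997 and 0.771.

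Of 26 lists of genes by function, with the genes of the rule taken out, 11 had a higher sum at 6 genes than at 3 in all 4 mice and 8 a lower sum in all 4. The peptidase and amino acid transport list had ratios of 1.89, 1.67, 2.04 and 1.15, the lipid absorption list 1.99, 1.79, 2.43 and 1.46, and the MHC class II list 3.26, 2.83, 1.35 and 2.18. The lists of sodium-coupled transport, cubilin complex, immediate early, xenobiotic, interferon-stimulated, junction, cell death and enterocyte peptide genes were the others that were higher. The ribosomal list had ratios of 0.377, 0.472, 0.325 and 0.505, and the lists of Reg3, injury-state, heat shock, endoplasmic reticulum (ER) stress, hypoxia, oxidative stress and oxidative phosphorylation genes were also lower in each mouse. The cells were split by genes measured in the same cells, so no test was made, and the values rest on 8 and 9 cells in control mouse 2 and, at 6 genes, on 5 cells in EC-Foxc-DKO mouse 2.

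**Figure D2:**
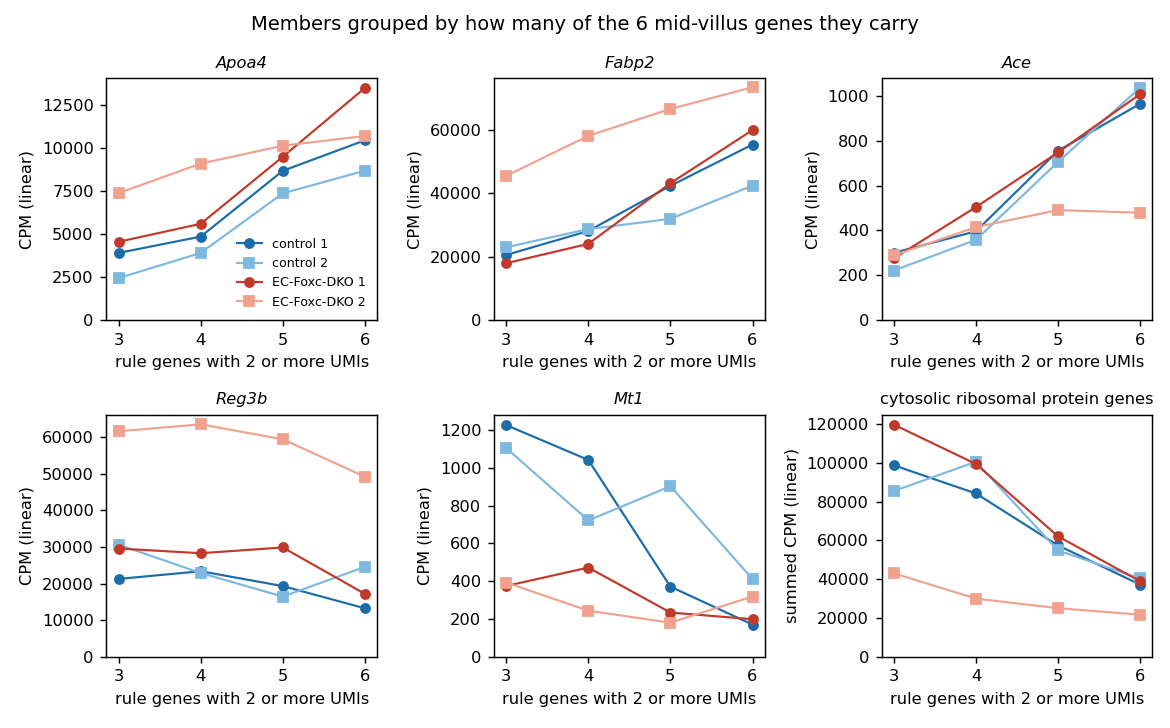
The members of each mouse divided by how many of the 6 genes of the rule they carry (3 to 6, x axis). The panels give the levels of Apoa4, Fabp2, Ace, Reg3b and Mt1 and the sum of cytosolic ribosomal protein genes (CPM). Apoa4 is higher and Mt1 lower at 6 genes than at 3 in all 4 mice. The shares of cells are not drawn, and cells with all 6 genes are 49.4% of the members in EC-Foxc-DKO mouse 1 and 6.33% in EC-Foxc-DKO mouse 2.

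Beside the villus-bottom enterocytes of the same mouse, the members were higher for Slc7a15, Cyp3a11 and Enpp7 and lower for Olfm4 and Cdca3. Of 1976 genes at 50 CPM or more in the members of every mouse, 124 were more than 2-fold higher than at the bottom in all 4 mice, and of 2049 genes at that level at the bottom, 237 were more than 2-fold lower in the members. These zones were chosen by measured genes, so the ratios are a description, with 0.5 UMI added to each sum. Slc7a15, a solute carrier gene of the amino acid transporter family, led with 121, 87.6, 145 and 198 CPM against 14.1, 3.93, 4.35 and 13.0 at the bottom, log2 ratios of 3.07, 4.26, 4.99 and 3.91. Cyp3a11, a cytochrome P450 of drug and bile acid metabolism, followed with 249, 189, 564 and 336 against 32.9, 5.24, 8.30 and 10.0 CPM. Enpp7, the alkaline sphingomyelinase of the brush border, was at 381, 196, 347 and 267 against 54.4, 10.5, 27.3 and 18.2 CPM, and Ace at 647, 558, 759 and 380 against 115, 28.8, 98.4 and 60.4 CPM. Leap2, which encodes a blocking ligand of the ghrelin receptor, was at 620, 571, 774 and 850 against 119, 87.8, 90.9 and 98.1 CPM. Selenop, a selenium carrier, was at 2741, 1859, 3219 and 1169 against 555, 244, 250 and 70.4 CPM. The remaining leaders were Sectm1b, Vnn1, Slc5a4b and Sgk1. The smallest log2 ratio of these 10 genes in any mouse was 2.27.

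The Cyp3a11 promoter held the HNF4 letters CAAAGTCCA on the gene's strand, beginning 109 bases upstream of the start, which 0.475% of all promoters hold. It is shown (chr5:145879855-145880104, minus strand of GRCm38.p6, 250 bases upstream of the start, capitals for the match) because Cyp3a11 also had a difference between the genotypes at an unadjusted p below the threshold.
Cyp3a11: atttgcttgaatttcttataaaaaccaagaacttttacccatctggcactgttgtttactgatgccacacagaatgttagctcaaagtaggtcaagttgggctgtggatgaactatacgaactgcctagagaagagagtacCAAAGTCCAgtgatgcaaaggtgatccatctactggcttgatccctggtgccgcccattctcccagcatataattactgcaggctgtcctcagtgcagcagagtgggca
Of the 10 leading genes, 8 matched a RefSeq promoter, of which 2 held the GATA letters, 1 the HNF4 letters and 1, Slc7a15, the CDX letters.

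The 10 genes most reduced against the bottom included several of crypt and dividing cells. The villus-bottom cells chosen here carried RNA of dividing and other cells themselves. Mki67, of dividing cells, was at 46.3, 151, 106 and 104 CPM there. Igkc was at 10263, 7.86, 84.6 and 687 CPM there, and the stromal gene Dcn at 0, 638, 118 and 0.271 CPM. Olfm4, a gene of crypt stem cells, was at 0.539, 4.17, 0.770 and 1.10 CPM in the members and 94.0, 1340, 270 and 120 CPM at the bottom. Cdca3, which acts in mitotic entry, was at 0.628, 0, 0.513 and 0.550 against 60.4, 115, 104 and 98.6 CPM. Ube2c, Pclaf, Birc5 and Ccnd2, which all act in the cell cycle, and Impdh2, of guanine nucleotide synthesis, were also among the 10, with Slc12a2, Ccdc34 and Ifitm2. Ribosomal protein genes summed to 65146, 73457, 66174 and 34057 CPM in the members and to 146424, 221247, 190024 and 166728 CPM at the bottom. Heat shock chaperones summed to 2470, 2699, 3143 and 2696 against 4828, 7428, 9516 and 11525 CPM. The order ran the same way in the 4 mice for both sums.

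Against villus-top enterocytes the differences were fewer, and they rest on 292, 3, 163 and 8 villus-top cells. These cells also carried RNA of secretory cells. The goblet cell gene Zg16 was at 629, 24.4, 7942 and 15976 CPM there, and Sct at 1600, 48.8, 218 and 197 CPM. More than 2-fold higher in the members of all 4 mice were 50 of 1976 genes, and more than 2-fold lower were 56 of 1423. Maoa and Maob, the monoamine oxidases, were higher: Maoa was at 980, 879, 835 and 873 CPM against 380, 0, 198 and 300 CPM. Rdh7 was at 297, 324, 236 and 58.9 against 93.8, 0, 39.2 and 0 CPM, and Cbr1, a carbonyl reductase, at 516, 630, 554 and 798 against 201, 24.4, 151 and 282 CPM. The inositol transporter gene Slc5a11, the glutathione transferase gene Gstm1, Reg3a, Pbld2, Prxl2b and Fahd1 were the others that led. Each of the 10 was higher in the members of all 4 mice.

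Of the genes that were lower in the members than at the top, the tight junction gene Cldn4 was at 8.08, 0, 6.80 and 7.15 CPM in the members and 344, 195, 276 and 223 CPM at the top. Tmsb4x, thymosin beta 4, was at 740, 361, 711 and 1070 against 3802, 4753, 4166 and 5651 CPM, and the tubulin gene Tubb2a at 15.6, 3.13, 17.4 and 20.9 against 340, 171, 224 and 171 CPM. Enpp3, Pmepa1, Gprc5a, Pmp22, Ifrd1, Oasl1 and S100a11 completed the 10. Cldn4 was low in the members of every mouse and higher at the top of each, with the log2 ratio of smallest size in EC-Foxc-DKO mouse 2 (-4.93).

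**Figure D3:**
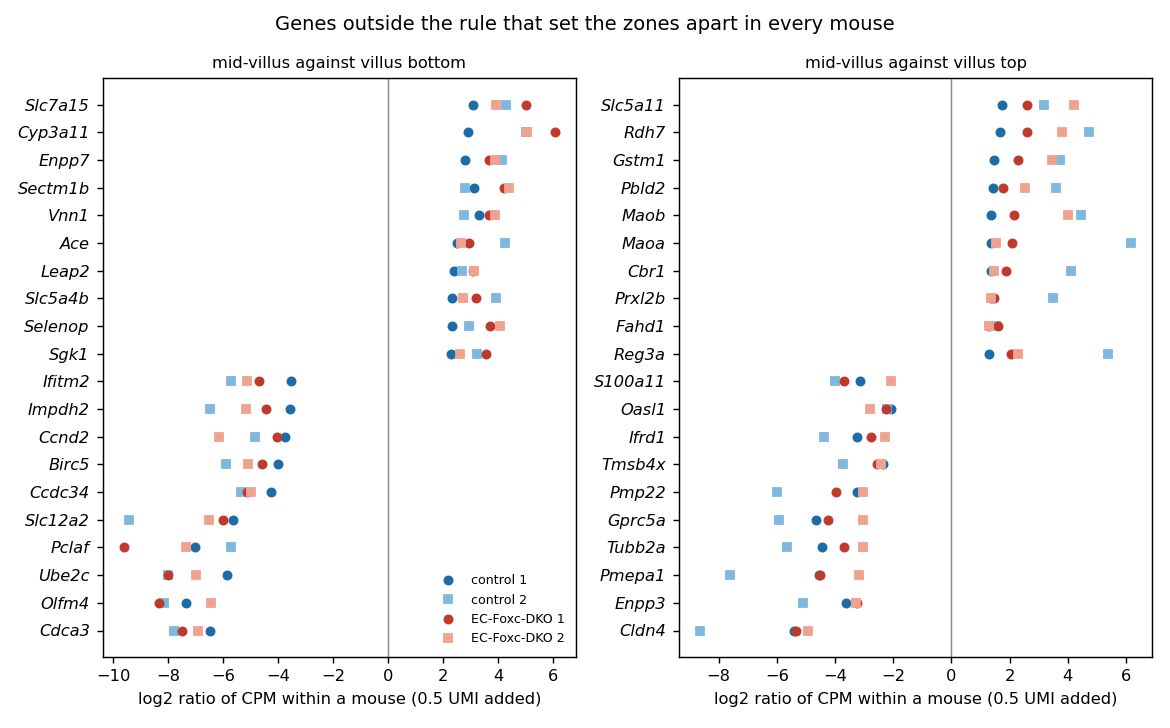
Log2 ratios of the level in mid-villus enterocytes to that in villus-bottom or villus-top enterocytes of the same mouse, for the 10 leading genes in each direction, with 1 point for each mouse. The ratios of Slc7a15 to the bottom lie between 3.07 and 4.99 and those of Cldn4 to the top are -5.41, -5.33 and -4.93 in the mice other than control mouse 2, whose members held no UMI of it and whose point is set by the 0.5 UMI added.

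The comparison of the genotypes asked whether enterocytes of the mid-villus differ after I/R when Foxc1 and Foxc2 are deleted in the endothelium. In the members, no UMI of Foxc1, Foxc2 or Cre was found in any mouse, which allows levels of up to 0.269, 3.13, 0.385 and 1.65 CPM by counting error alone. Among all cells within the mitochondrial limit, Foxc1 had 9, 11, 6 and 3 UMIs, Foxc2 none, and Cre 0, 0, 4 and 3, so Cre was found in the EC-Foxc-DKO libraries only. The members themselves give no check of the deletion.

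The members were 27.0%, 18.2%, 18.9% and 9.45% of the Epcam cells within the mitochondrial limit, with exact 95% binomial intervals, for counting error only, of 24.5 to 29.6%, 12.6 to 25.1%, 16.8 to 21.1% and 7.55 to 11.6%. The mean of the EC-Foxc-DKO mice minus that of the controls was -8.46 points, with an SD within the groups of 6.43 points, and EC-Foxc-DKO mouse 1 lay between the controls. When Epcam cells were thinned to 5000 UMIs each, with 207, 32, 438 and 51 shallower cells left out, the shares were 18.7%, 6.30%, 15.8% and 1.66%. The smallest p that an exact permutation test (two-sided) could reach with 4 mice is 0.333, and none was run. The groups overlapped in both versions, and a share of cells cannot say whether fewer cells of the type were present or fewer met the rule. The limits of the rule shape these shares. The Sprr2a3 condition left out 78, 2, 38 and 126 cells, in EC-Foxc-DKO mouse 2 more than the 79 it kept. The mitochondrial limit left out 545, 129, 528 and 28 barcodes. The difference was not computed without the Sprr2a3 condition.

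Levels were compared between genotypes on UMI counts summed over the members of each mouse with edgeR's quasi-likelihood test and Benjamini-Hochberg adjustment over 9232 genes. None passed an adjusted p of 0.05 (0%), the lowest adjusted p being 0.239, for Akr1e1. At an unadjusted p under 0.05 there were 213 genes, 137 higher (1.48%) and 76 lower (0.823%) in EC-Foxc-DKO mice, and DESeq2 called 3 genes, which were Akr1e1, Mt1 and the unnamed gene model 2010001M07Rik. Both EC-Foxc-DKO mice were above both controls in CPM for 1132 genes (12.3%) and below both for 1905 (20.6%). On the TMM scale of the test, added after seeing the data, these were 1470 (15.9%) and 1539 (16.7%). The test without EC-Foxc-DKO mouse 2, in which the lone mouse of that group is assumed to vary like the controls, called 2 genes, Gip and Chgb, both of hormone-secreting cells. Without EC-Foxc-DKO mouse 1 it called 330, without control mouse 2 it called 35 and without control mouse 1 none, so the mouse that stood apart, taken alone against the controls, gave the most calls.

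Akr1e1, an aldo-keto reductase gene on the minus strand of chromosome 13 (4590750 to 4609174, GRCm38), was at 4.13 and 7.30 CPM in the controls and 31.2 and 29.2 CPM in the EC-Foxc-DKO mice. It was found in 30 of 328, 5 of 29, 127 of 243 and 35 of 79 cells, and the groups did not overlap. In lymphocytes of the same libraries, at medians of 3378.5, 4730, 3365 and 3471 UMIs, it was found in 0 of 114, 0 of 65, 15 of 1173 and 4 of 125 cells. The zeros allow shares of cells with a UMI of up to 2.63% and 4.62% at these depths by counting error alone, and do not bound the shares of cells that carry the gene. Its level there was 3.70 and 7.77 CPM in the EC-Foxc-DKO mice, below the level in the members, and free RNA in the droplets was not otherwise measured. The log2 difference was 2.76 ± 0.34 (SE), with an unadjusted p of 2.6e-05 in the edgeR fit and the adjusted p of 0.239 above. The log2 difference was 2.76 without EC-Foxc-DKO mouse 2 and 2.097 without control mouse 1, the lowest value with 1 mouse left out.

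**Figure D4:**
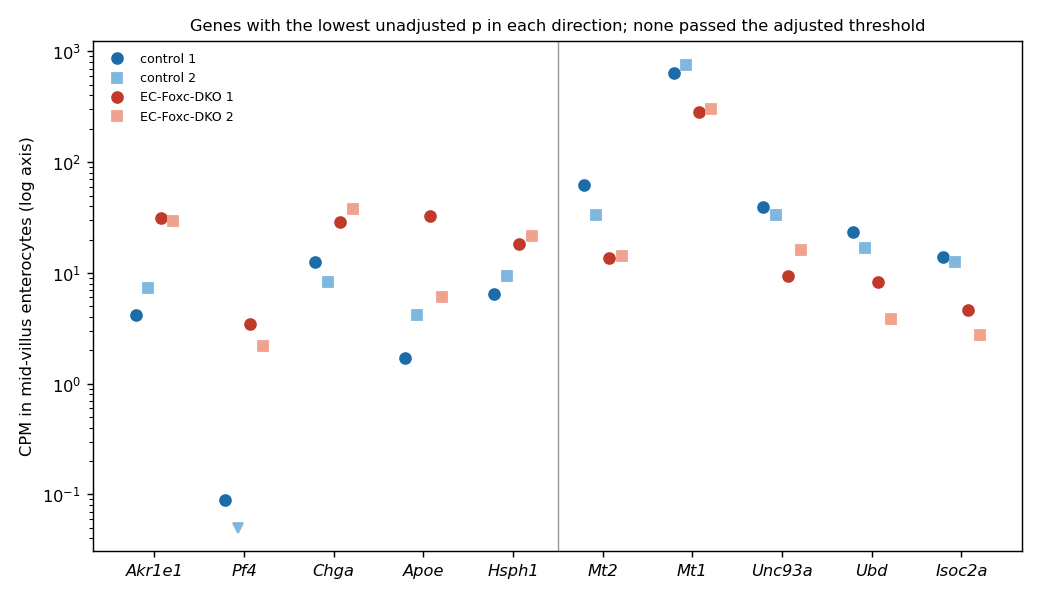
Levels (CPM, log axis) in the members of each mouse for the 5 genes with the lowest unadjusted p in each direction between genotypes, none of which passed the adjusted threshold. Akr1e1 is at 31.2 and 29.2 CPM in the EC-Foxc-DKO mice and at 4.13 and 7.30 CPM in the controls, and a triangle at the foot marks a mouse with no UMI.

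Gene models without a name of their own were not described further, except that 2010001M07Rik, singled out because DESeq2 called it, was at 5.21, 5.21, 25.8 and 42.9 CPM, with a log2 difference of 2.78 ± 0.39 and an adjusted p of 0.351 in the edgeR fit. The next 4 named genes by p on the higher side were at low levels. Hsph1, a heat shock chaperone, was at 6.46, 9.39, 18.2 and 21.5 CPM (log2 difference 1.53 ± 0.35), in 16.8%, 27.6%, 32.5% and 27.8% of the cells. In the shallower lymphocytes it was higher, at 86.1, 52.2, 69.0 and 74.6 CPM. Chga, of the secretory granules of enteroendocrine cells, was at 12.7, 8.34, 29.0 and 38.0 CPM, and 1 barcode held 64.6% of its UMIs in EC-Foxc-DKO mouse 1. Apoe, an apolipoprotein abundant in macrophages, was at 1.71, 4.17, 32.6 and 6.05 CPM, with 53.5% of the UMIs of EC-Foxc-DKO mouse 1 in 1 barcode, and the platelet chemokine gene Pf4 was at 0.0898, 0, 3.46 and 2.20 CPM, with 66.7% of those of the same mouse in 1 barcode. Without the 148 members that held 2 or more UMIs of genes of other cell types, the log2 difference was 2.80 in place of 2.76 for Akr1e1, 1.23 in place of 1.53 for Hsph1 and 1.38 in place of 3.39 for Apoe. For Chga it was 0.13 in place of 1.61, but Chga was one of the genes by which these cells were taken out. It was also lower, 0.49, with a mitochondrial limit of 20%, and 1.00 in members with no villus-top gene, choices that do not use Chga. The log2 difference of Apoe was 1.65 without EC-Foxc-DKO mouse 1, 4.03 without EC-Foxc-DKO mouse 2 and 1.67 without the cells of highest doublet score.

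On the lower side the metallothioneins led. Mt1, which binds zinc and copper and is induced by them, was at 639, 761, 283 and 299 CPM, a log2 difference of -1.18 ± 0.24, and was found in 233 of 328, 26 of 29, 170 of 243 and 62 of 79 cells, against 5.26%, 6.15%, 3.84% and 9.60% of the shallower lymphocytes. Mt2, its neighbor on chromosome 8, was at 62.5, 33.4, 13.7 and 14.3 CPM, a log2 difference of -1.79 ± 0.32. The groups did not overlap for either gene, and neither passed the adjusted threshold in the edgeR test. For Mt2 this rests partly on a single barcode of control mouse 2, which held 65.6% of the 32 UMIs of Mt2 there. Among members with 3 genes of the rule, Mt1 was at 1227, 1105, 375 and 393 CPM, and among those with all 6 at 170, 412, 199 and 319 CPM, where the groups overlapped, with 9 cells in control mouse 2 and 5 in EC-Foxc-DKO mouse 2. With a mitochondrial limit of 5%, under which control mouse 2 had no member, the log2 difference of Mt1 was 0.88. The ubiquitin-like gene Ubd, which interferons and TNF induce, was at 23.6, 16.7, 8.21 and 3.85 CPM, Unc93a at 39.2, 33.4, 9.37 and 16.0 CPM and Isoc2a at 13.8, 12.5, 4.62 and 2.75 CPM. In control mouse 2, 1 barcode held 15 of the 16 UMIs of Ubd, so that its level there rests on that barcode.

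By function, 26 lists held 583 genes besides those of the rule, of which 519 passed the filter on low counts and were tested. None was called by edgeR after adjustment, while 33 were higher and 11 lower at an unadjusted p under 0.05, against the 1.48% and 0.823% of all genes, and the median log2 difference of all genes was 0.00318. The counts of each list below leave out the genes of the rule and are a description of these 4 mice. Above and below there mean both EC-Foxc-DKO mice above or below both controls, in CPM, to be read against the 12.3% and 20.6% of all genes given above. The TMM scale divides the CPM by about 1.048, 1.009, 1.039 and 0.909, and is named where it changes a pattern.

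The absorptive lists had medians slightly above zero. Lipid absorption genes summed to 101893, 84997, 110507 and 127531 CPM, with a median log2 difference of 0.27, and 10 of the 24 tested were above and 1 below, against 12.3% and 20.6% of all genes. Fabp2, with the values given above, had a log2 difference of 0.59 ± 0.28, the chylomicron gene Apoa1 was at 20506, 15493, 21096 and 22933 CPM, and Fabp1 at 18933, 18924, 19044 and 22555 CPM. Peptidase and amino acid transport genes had a median of 0.24, with 7 of 20 above and 1 below, and the aminopeptidase gene Anpep was at 2757, 2194, 2892 and 2530 CPM. Sugar genes had a median of 0.18, with 3 of 13 above and none below, and sucrase-isomaltase (Sis) was at 2366, 3271, 2825 and 3230 CPM. Sodium-coupled transport genes had a median of 0.17, with 2 of 14 above and 1 below. Genes of the cubilin complex and of vitamin uptake had a median of 0.34 over the 6 tested, with 1 above and none below. Amn, the membrane partner of cubilin, was at 374, 334, 366 and 263 CPM, and EC-Foxc-DKO mouse 2 was the lowest. The sum of the lipid genes was above both controls in both EC-Foxc-DKO mice, on the TMM scale too. Among members with 3 genes of the rule it was 65941, 63592, 58156 and 110866 CPM. With all 6 it was 131496, 113832, 141179 and 161838 CPM. EC-Foxc-DKO mouse 1 was thus below both controls at 3 genes, and also at 4, and above both at 5 and at 6. The sum of the sugar genes was 9204, 11051, 11072 and 11157 CPM, and it overlapped on the TMM scale (8802, 10971, 10691 and 12297) or with the genes of the rule included. The peptidase sum overlapped in CPM and not on the TMM scale (9704, 8330, 10464 and 11084), and the sums of the sodium-coupled and cubilin lists overlapped on both.

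Metabolic lists had medians close to that of all genes. Fatty acid oxidation genes had a median of -0.01, with 2 of 17 above and 7 below, against 12.3% and 20.6% of all genes, and Acaa2, of mitochondrial beta-oxidation, was at 530, 336, 328 and 103 CPM. Their sums were 2442, 2344, 2306 and 1997 CPM, and 2332, 2323, 2224 and 2200 on the TMM scale. Both EC-Foxc-DKO mice were below both controls for this sum on both scales. Cholesterol synthesis genes had a median of -0.11, xenobiotic genes -0.04 and retinoid genes -0.07. Within the xenobiotic list Cyp3a11, with 249 and 189 CPM in the controls and 564 and 336 CPM in the EC-Foxc-DKO mice, had an unadjusted p of 0.0031 in the edgeR fit, a log2 difference of 1.10 ± 0.27 and an adjusted p of 1.00. Rbp2, the retinol carrier of enterocytes, was at 16642, 16835, 16748 and 22355 CPM. Transcription factors of enterocytes had a median of -0.04, and the lead gene Creb3l3, a regulator of lipid genes, was at 618, 463, 575 and 401 CPM. The first 3 mice were close to each other for Rbp2, and EC-Foxc-DKO mouse 2 was the one apart.

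Most defence and stress lists were highest in EC-Foxc-DKO mouse 2. Reg3 and other villus-bottom defence genes summed to 35359, 47186, 41240 and 103154 CPM, so EC-Foxc-DKO mouse 1 lay between the controls. They are named for the lower villus, but in each mouse their sum was higher in the members than in the villus-bottom cells chosen here (31494, 13844, 26870 and 50601 CPM), although the 6 genes that chose those cells are in the list. Reg3b was at 18753, 24727, 23569 and 60924 CPM in the members and 13698, 5220, 13139 and 28293 CPM at the bottom, and Reg3g, a lectin active against Gram-positive bacteria, at 7044, 11141, 8573 and 29224 CPM in the members. ER stress genes summed to 1319, 1205, 1480 and 2556 CPM, with a median log2 difference of 0.47, 8 of 16 above (12.3% of all genes) and 5 higher at an unadjusted p under 0.05 (1.48% of all genes). The ER chaperone gene Hspa5 was at 443, 355, 511 and 945 CPM and Manf at 224, 185, 271 and 524 CPM, so that EC-Foxc-DKO mouse 1 was above both controls by far less than EC-Foxc-DKO mouse 2. Heat shock chaperones had a median of 0.36, with 7 of 11 above (12.3% of all genes) and none below, and their sums of 2470, 2699, 3143 and 2696 CPM overlapped, although not on the TMM scale (2362, 2678, 3034 and 2970). Injury-state genes summed to 2873, 2713, 2447 and 3952 CPM and oxidative stress genes to 8961, 9075, 8425 and 12139 CPM, with EC-Foxc-DKO mouse 1 the lowest and EC-Foxc-DKO mouse 2 the highest in both.

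The sums of both immune lists overlapped between the groups. MHC class II genes summed to 1789, 933, 1122 and 1787 CPM, with 0 of 8 above and 0 below, and the invariant chain gene Cd74 was at 772, 366, 435 and 942 CPM. Interferon-stimulated genes summed to 1057, 826, 892 and 766 CPM, with a median of -0.01. Genes of Wnt, R-spondin and CXCL12 signaling, whose ligands come from endothelial and stromal cells, had 10 tested members with a median of 0.20, 1 above and 3 below. Their frizzled receptor gene Fzd5 was at 79.8, 70.9, 59.3 and 39.1 CPM, a log2 difference of -0.54 ± 0.24. Junction genes had a median of 0.09, cell death genes 0.10, immediate early genes 0.03 and hypoxia genes 0.16. Metal handling genes had a median of 0.40, with 6 of 14 above and 3 below (12.3% and 20.6% of all genes), the latter including both metallothioneins. Peptides of enterocytes had a median of 0.44 over 8 genes, and their lead gene Guca2b, uroguanylin, was at 5689, 5395, 6670 and 6642 CPM, a log2 difference of 0.35 ± 0.23. Of these 8, 4 were above and 0 below (12.3% and 20.6% of all genes). In the edgeR fit 3 were higher at an unadjusted p under 0.05 (1.48% of all genes). Their sums did not overlap in CPM (15737, 14629, 17034 and 17294) or on the TMM scale (15049, 14523, 16447 and 19061). Among members with 3 genes of the rule they were 11175, 12482, 10777 and 15605 CPM, and with all 6 19687, 17433, 20507 and 19902 CPM. EC-Foxc-DKO mouse 1 was thus below both controls at 3 genes, and also at 4, between them at 5 and above both at 6.

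The lists of ribosomal and oxidative phosphorylation genes had more members below than above the controls. Of 73 ribosomal protein genes, 29 were below both controls in both EC-Foxc-DKO mice and none above, with a median of -0.41, against the 20.6% and 12.3% of all genes. Their sums of 65146, 73457, 66174 and 34057 CPM put EC-Foxc-DKO mouse 1 between the controls. Of 75 nuclear oxidative phosphorylation genes 49 were below and none above, with a median of -0.13 and sums of 49911, 59214, 48337 and 46109 CPM. On the TMM scale 22 were below, against 16.7% of all genes, the sums were 47733, 58783, 46675 and 50820, and EC-Foxc-DKO mouse 2 lay between the controls. For the ribosomal genes 25 were below on that scale. None of these genes reached an unadjusted p of 0.05 in the edgeR fit.

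**Figure D5:**
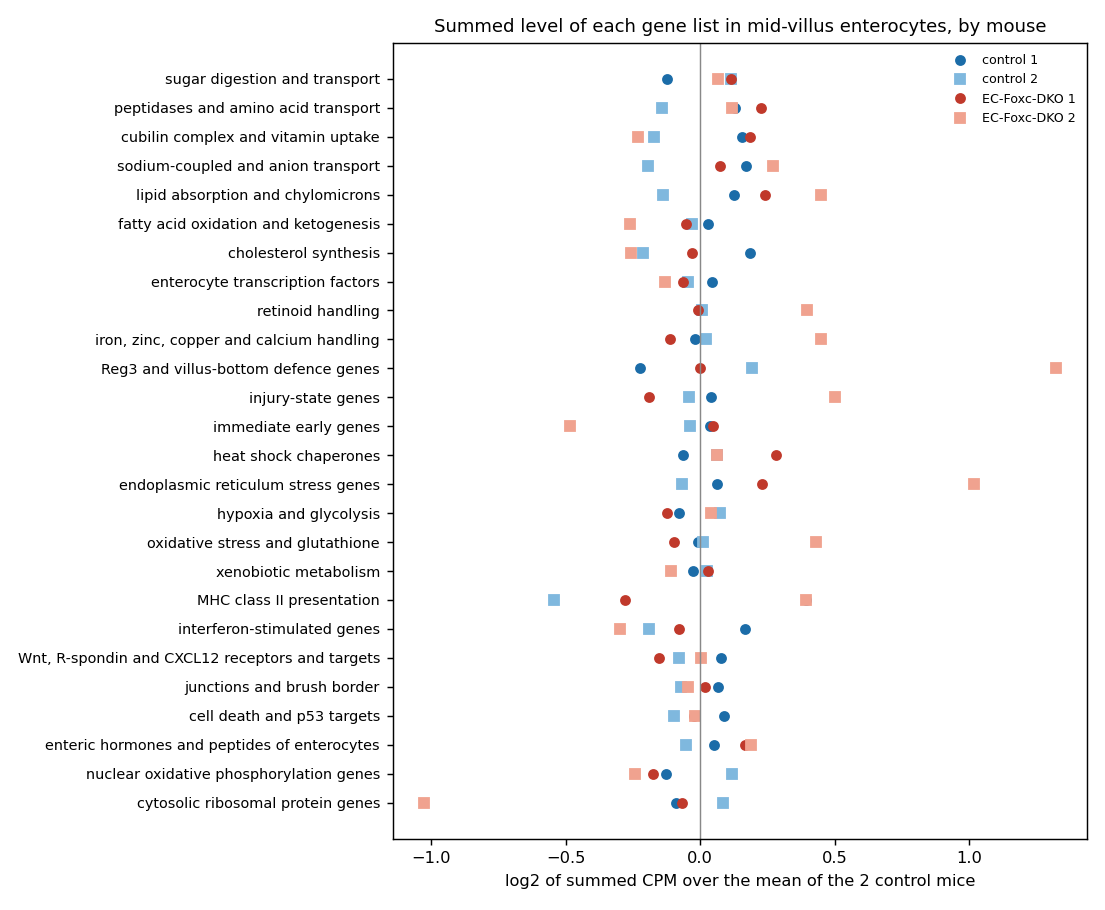
Summed level of each of the 26 lists, genes of the rule included, in each mouse, as the log2 ratio to the mean of the controls. EC-Foxc-DKO mouse 2 is farthest to the right for the Reg3 list (103154 CPM) and farthest to the left for the ribosomal list (34057 CPM), and EC-Foxc-DKO mouse 1 lies near the controls for both.

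Whether the genotype difference in the members was unlike that in the neighboring zones was tested as an interaction of genotype and zone, with the mouse as a block, in edgeR's quasi-likelihood test with Benjamini-Hochberg adjustment. Against villus-bottom enterocytes, 0 of 9701 genes passed (0%), the lowest adjusted p was 0.386, and 453 genes had an unadjusted p under 0.05. With control mouse 1, control mouse 2, EC-Foxc-DKO mouse 1 or EC-Foxc-DKO mouse 2 left out, 15, 122, 21 and 3 genes passed. Against villus-top enterocytes, 25 of 9287 genes passed (0.269%), 251 had an unadjusted p under 0.05, and 162, 30, 6 and 47 passed with the same mice left out in turn. Of these 25, 10 are in the marker lists of other cell types, Igha and the goblet cell gene Zg16 among them. The lowest p were those of Pyy and Cck, hormones of enteroendocrine cells that are not in these lists. Pyy was at 0.808, 0, 8.34 and 1.10 CPM in the members and at 1434, 0, 0.548 and 0 CPM at the top, and 1 villus-top barcode of control mouse 1 held 59.9% of its 9280 UMIs there. For Igha the members of control mouse 1 stood out, through the barcode named above, at 472, 5.21, 8.21 and 9.90 CPM against 5.41, 0, 11.8 and 25.7 CPM at the top. Fabp6, with 505 CPM in the members of EC-Foxc-DKO mouse 2 and none at the top, was called as well. Mt2 was called too, at 62.5, 33.4, 13.7 and 14.3 CPM in the members and 26.7, 0, 46.9 and 17.1 CPM at the top, an interaction of -2.76 on the log2 scale with an adjusted p of 0.0091 in the edgeR test. Both EC-Foxc-DKO mice were below both controls for Mt2 in the members and not at the top, where the replicate 2 mice gave 3 and 8 cells. At the top, 1 barcode of EC-Foxc-DKO mouse 1 held 49.7% of its 171 UMIs of Mt2, and EC-Foxc-DKO mouse 2 had 2 UMIs. In the members of control mouse 2, 1 barcode held 65.6% of the 32 UMIs of Mt2.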

How the data were processed

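Single-cell 3′ RNA-seq libraries of 4 mice (2 per group) were used. The authors deposited UMI counts per gene and barcode, not normalized, made with Cell Ranger (version 4.0.0 and mm10 in the submitters' processing notes, while the methods name another version). Members were found by the rule in the matrices (Python 3.11.15, scanpy 1.11.5) and their counts summed per mouse. CPM is per 1000000 UMIs of all 32286 features of these cells. The summed counts were tested with edgeR 4.0.16 (filterByExpr, TMM, glmQLFit, glmQLFTest, Benjamini-Hochberg, threshold 0.05), and DESeq2 1.42.0 was an alternative. The SE is the log2 difference over the square root of F. The scripts were tested on simulated data.

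Members and lists were chosen with earlier results of these data known. Named were the genes of the rule, up to 3 per list by mean level, the 5 genes of lowest p in each direction, without gene models such as those ending in Rik, since none passed, and the 10 with the largest smallest ratio to each other zone; others are marked as picked after their values were seen. Of 594 listed genes, 589 were used here. Doublets were kept: Scrublet's own threshold marked 13 cells, and in its place the 305 highest scores, 22 of them members, were left out as an alternative. Coordinates are from GENCODE on GRCm38. Which mice shared a litter is not given in the sources used here, and p-values measure the spread between these mice. No interval covers more than counting error.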

Additional observations from a re-analysis of the deposited data

Results flagged for a closer look

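The genotype difference in mid-villus enterocytes was unlike that in villus-top enterocytes of the same mice for 25 genes, by edgeR's test of the interaction of genotype and zone with Benjamini-Hochberg adjustment. A positive value means that the log2 difference of EC-Foxc-DKO to control mice was higher in mid-villus than in villus-top cells. Of the 12 genes with the lowest p, 6 were positive. The hormone genes Pyy and Cck had values of 14.64 and 11.92, and the granule protein gene Chgb had 4.77. Wfdc17, a gene of myeloid cells, had 7.12, the ileal bile acid binding protein gene Fabp6 had 7.35 and the fatty acid binding protein gene Fabp5 had 4.48. Wfdc17 was at 0.0898, 0, 2.18 and 0 CPM in the members, with 186, 0, 12 and 1 UMIs at the top. At the top, Fabp6 had 10, 0, 2 and 0 UMIs and Fabp5 131, 0, 69 and 0. Pyy and Cck had no UMI at the top in either replicate 2 mouse. With such zeros the sizes of these values are not exact. The other 6 were negative. The immunoglobulin genes Igha, Igkc, Iglc2 and Jchain had -7.05, -6.57, -6.59 and -6.33, the goblet cell gene Zg16 had -5.00, and the flavin monooxygenase gene Fmo2 had -4.51.

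Single barcodes carried much of these sums. In villus-top cells of control mouse 1, 1 barcode held 87.3% of the 5094 UMIs of Cck. In those of EC-Foxc-DKO mouse 2, 1 barcode held 99.8% of the 1866 UMIs of Zg16. In mid-villus cells of control mouse 1, 1 barcode held 98.4% of the UMIs of Igkc and 99.0% of those of Jchain. The villus-top sums of the replicate 2 mice came from 3 and 8 cells.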

How the results depend on the processing

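The count of genes called between genotypes in mid-villus enterocytes, 0 in the edgeR test, was 3 with DESeq2, 119 without a filter on low counts, 84 with a mitochondrial limit of 5%, which left control mouse 2 without members, and 0 to 330 with 1 mouse left out (with the spread of a lone mouse taken from the group of 2). It was 0 in the remaining 8 alternatives. The replicate block, with the replicate number as a term, gave 5 calls, Gip, Fabp6, Lcn2, Akr1e1 and 2010001M07Rik. The numbers are shared in the labels, but the deviations of same-numbered mice had a correlation of -0.0644 across 2416 genes, which are not independent, so they were not taken to pair the mice. The count for the interaction with villus-top cells, 25, was 40 without the filter and 6 to 162 with 1 mouse left out. That for villus-bottom cells, 0, was 21 without the filter, 1 without the highest doublet scores and 3 to 122 with 1 mouse left out. The difference in the share of Epcam cells, -8.46 points, was 0.909 points at the limit of 5%. The log2 difference of Mt1 turned to 0.88 at that limit. The cause of these changes was not tested, other than that control mouse 2 had no member at 5%. With 2 mice a group, 29 members in control mouse 2 and an EC-Foxc-DKO mouse 2 that stands apart, these data bound differences between genotypes only loosely.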
